A study of Mus musculus with 26 samples.

Results

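The odd-pool and even-pool peak lists of 4T1 cells were compared with each other, to ask which genomic regions were recovered by both pools of MaTAR25 oligonucleotides and which by 1 pool alone. All peaks on chromosomes 1 and 4 to 19 were taken, because the even-pool list holds no peak on chromosome 3 and a surplus on chromosome 2. This gave 51342 odd-pool peaks of 61311 in the list and 53985 even-pool peaks of 64607, together 105327 of the 273053 peaks in the 4 lists of the series. A peak that overlapped a peak of the other list by 1 bp or more was called shared, and the others were called odd-only or even-only.

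MaTAR25 is a nuclear long noncoding RNA of mouse mammary tumors. 4T1 is an established mouse mammary carcinoma line, labelled here as BALB/c, wild type and mammary tumor. The odd pool was used in 2 libraries, the even pool in 3 libraries, and a Cyclophilin B (Ppib) oligo pool in 1 library, which served as the control pulldown for both lists. Cells were fixed in glutaraldehyde before the pulldown. The authors pooled the replicate libraries of a pool into 1 list, so there is no spread between replicates for any peak value, and each interval in the text is a 95% Wilson interval for the counting of peaks alone. The total-pool list of 4T1 cells (2 libraries, all 14 oligos) and the total-pool list of NDL cells (2 libraries, labelled primary NDL cells and FVB, with a Cyclophilin B pulldown of their own) were used for comparison. The labels give MMTV-PyMT as the genotype of the NDL cells, whereas the study describes them as MMTV-NDL, a Neu-driven model, so their transgene is uncertain here. RNA-seq of 2 control libraries and 7 libraries from 2 MaTAR25 knockout clones of 4T1 cells, 3 of KO1 and 4 of KO2, gave a readout that the peaks did not use. In the control RNA-seq libraries the epithelial markers Epcam (460 and 485 CPM, counts scaled to library size), Krt8 (452 and 412), Krt18 (1140 and 1130) and Cdh1 (759 and 940) were high, and the leukocyte, endothelial and mural markers Ptprc, Pecam1, Acta2 and Pdgfrb did not exceed 0.214 CPM.

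In Chromatin Isolation by RNA Purification (ChIRP), short biotinylated DNA oligonucleotides complementary to an RNA are hybridised to fixed chromatin, and the DNA that comes along on streptavidin beads is sequenced. DNA can be recovered because the RNA was bound near it, or because an oligonucleotide hybridised to the DNA itself. Oligonucleotides are therefore split by their order along the RNA into an odd and an even pool, which target the same RNA with different oligonucleotides. Regions found with both pools are usually the ones kept.

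The sequences of the pools are shown because the results below turn on them. Each oligo has 20 bases, and each pool has 7 oligos. The source of the sequences numbers the oligos and does not mark their pool, so odd numbers were taken as the odd pool and even numbers as the even pool. All 14 lie on the plus strand of chromosome 2 in GRCm38, antisense to MaTAR25, which is transcribed from the minus strand. Oligo1 (chr2:167833597-167833616) and oligo2 lie in exon 1, and the others, down to oligo14 (chr2:167827934-167827953), lie in exon 2. Sequences are written 5′ to 3′, and capitals mark the 12 consecutive bases of each oligo that were matched most often in the peaks of its own pool.
oligo1: ggATCAATACTGTCcaagct
oligo2: aaGAGTCTGACTTCttggca
oligo3: TCCTGGAGATGCattttttc
oligo4: caggtGGTGGAGATGGAatg
oligo5: gaaAGGAAACACCCAggtca
oligo6: aGTCACAGAGAAGgacggcg
oligo7: ttgGGAGTAACCTGGggaag
oligo8: CTTGCTCCAGAAcgacagcg
oligo9: CAGTCACACACTtgacacat
oligo10: atgatACCTCTCATCTGgag
oligo11: agaAGGAATGTCACCtgtca
oligo12: aataGGGAGAAGGGAGgctc
oligo13: ctCAATTCACCCATggatta
oligo14: GGCTTTGGAAATacattggg
Among these, oligo4 holds the stretch GGTGGTGGAGAT at its bases 3 to 14, and oligo12 holds a purine-only core of A and G. Short stretches recur between the pools, as TGGAGATG does in oligo3 and oligo4.

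Of the odd-pool peaks, 11538 (22.5%, 95% interval 22.1 to 22.8) were shared, and of the even-pool peaks 11536 (21.4%, 21 to 21.7) were shared. These formed 11542 pairs with a median overlap of 500 bp, and 11074 pairs overlapped by at least 250 bp. The remaining 39804 odd-pool and 42449 even-pool peaks belonged to 1 list alone. For comparison, 2.90% of all 500-bp windows of the same chromosomes overlapped an even-pool peak and 2.72% overlapped an odd-pool peak, so that the shared share was 7.76 times the share of windows for the odd list and 7.86 times for the even list. Within 1 kb of a peak of the other list lay 2035 odd-only peaks (5.11%) and 2046 even-only peaks (4.82%). The median distance to the nearest such peak was 12070 bp and 12557 bp. The same distances were not computed for windows, so these values have no background to be read against.

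Shared peaks were concentrated at high scores, which rank peaks within a list and are not comparable between lists. In the odd list, 66.0% of the top 100 peaks, 55.2% of the top 1000 and 35.5% of the top 10000 were shared. In the even list these shares were 81.0%, 73.4% and 47.4%. Over 10 equal bins of the list by score the shared share fell from 42.7% to 17.0% in the odd list and from 55.2% to 6.85% in the even list, as the plot of overlap by score shows. From bin 4 on the odd list stayed between 17.0% and 20.6%, whereas the even list fell from each bin to the next. The median score was 58.0 for shared and 40.7 for odd-only peaks in the odd list, and 76.3 for shared and 33.7 for even-only peaks in the even list. Within the pairs the ranks went together only loosely. Spearman's rho of the scores was 0.383 over 11542 pairs, which share the Ppib control, and 16 pairs had both peaks in the top 100 of their list and 238 had both in the top 1000.

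**Figure D1:**
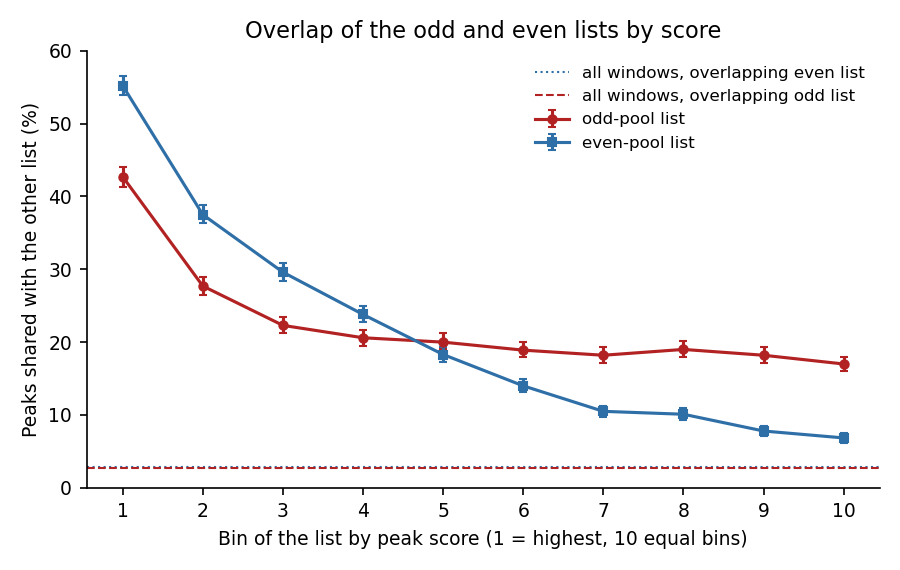
Share of peaks (percent, vertical axis) that overlap a peak of the other list, in 10 equal bins of each list by score from the highest scores (1) to the lowest (10); bars are 95% Wilson intervals and the flat lines give the share of all 500-bp windows overlapping each list. The even-pool list fell from 55.2% to 6.85% and the odd-pool list from 42.7% to 17.0%, all above the windows (2.72% and 2.90%).

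Peaks found with 1 pool alone carried sequence matches to that pool and seldom to the other. Of the odd-only peaks, 20.0% (19.7 to 20.4) matched an odd oligo exactly over 12 bases or more, on either strand, 41.8 times the 0.480% of windows, and 1.02% (0.924 to 1.12) held one to an even oligo, against 0.695% of windows. Of the even-only peaks, 17.2% (16.9 to 17.6) held a match to an even oligo, 24.8 times the share of windows, and 0.283% (0.236 to 0.338) held one to an odd oligo, against 0.480% of windows. In the whole odd list 3160 peaks (6.15%) held an even-oligo match, and 2755 of these were shared. In the whole even list 1129 peaks (2.09%) held an odd-oligo match, and 1009 of these were shared. The low shares for the other pool therefore partly follow from the overlap rule. Matches of 14 bases or more to an odd oligo were found in 684 odd-only peaks and in 0 even-only peaks, which for a count of 0 of 42449 allows a share of up to 0.00707% by a limit of 3 counts (Wilson upper bound 0.00905%). The even list as a whole held 268 peaks with such a match. All 268 were shared, so the overlap rule had placed them outside the even-only class. Matches to the Ppib oligos, which were not in either pool, were in 0.301% of odd-only and 0.297% of even-only peaks, below the 0.693% of windows. Both lists were called against the Ppib pulldown, which removes sites that the Ppib oligos recover. The low Ppib share is therefore no independent control.

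Shared peaks carried matches to both pools, and more often to the even pool. In the odd list, 23.9% (23.1 to 24.7) of shared peaks held an even-oligo match and 10.5% (10.0 to 11.1) an odd-oligo match, and in the even list the shares were 25.4% and 8.75%. Matches to both pools in 1 peak were uncommon, at 0.815% of the shared peaks of the odd list. In 66.4% of shared, 79.1% of odd-only and 82.5% of even-only peaks there was no match of 12 bases to any of the 14 oligos. Among peaks without such a match, 19.6% of the odd list and 18% of the even list were shared. Shared peaks were longer (median 625 bp against 500 bp), and within the 500 bp around the peak centre 22.5% of them held an even-oligo match and 9.42% an odd-oligo match.

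**Figure D2:**
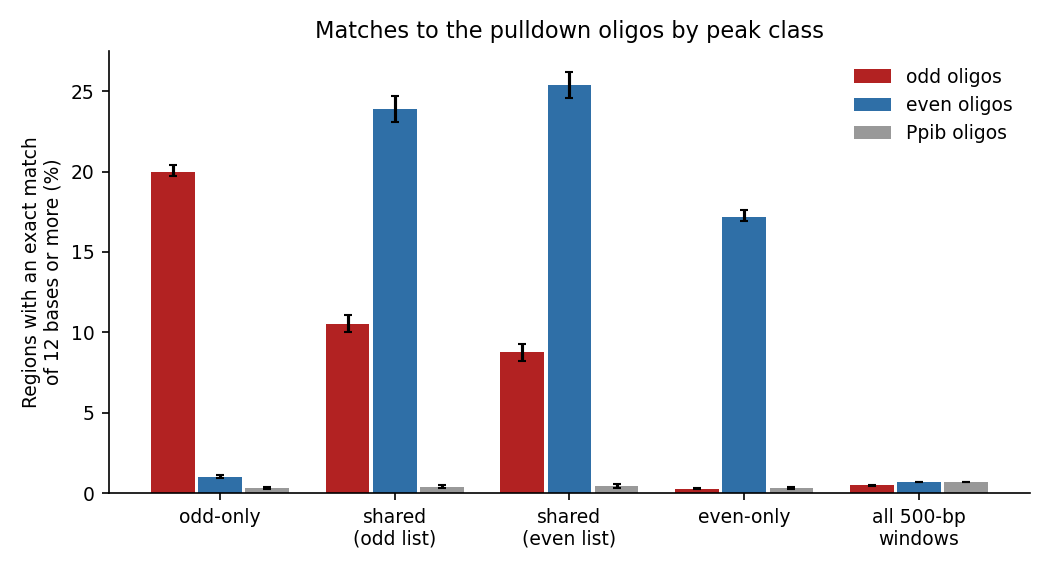
Share of regions (percent) that match the odd, even or Ppib oligos exactly over 12 bases or more, for the 4 classes of peaks and for all 500-bp windows of the same chromosomes; bars are 95% Wilson intervals. Odd-only peaks match odd oligos (20.0%), even-only peaks match even oligos (17.2%), and shared peaks match both, even oligos more often (23.9% against 10.5% in the odd list).

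The matches sat at the peak centres. In odd-only peaks, 77.1% of the 7795 odd-oligo matches within 250 bp of the centre lay within 100 bp of it, and in even-only peaks 85.4% of the 7568 even-oligo matches did. Matches of the other pool lay without such a concentration in peaks of 1 list alone, with 48.8% of 373 in odd-only and 45.0% of 100 in even-only peaks. In shared peaks both kinds were concentrated: of the even-oligo matches 74.1% in the odd list and 83.0% in the even list lay within 100 bp, and of the odd-oligo matches 68.2% and 76.2%. Even-oligo sites stood at the centre of shared peaks also in the list made without even oligos. Shared peaks were defined by overlap with the other list, in which sites of that list's own pool were central. These positions, and the lack of them in peaks of 1 list alone, therefore partly follow from the class rule.

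**Figure D3:**
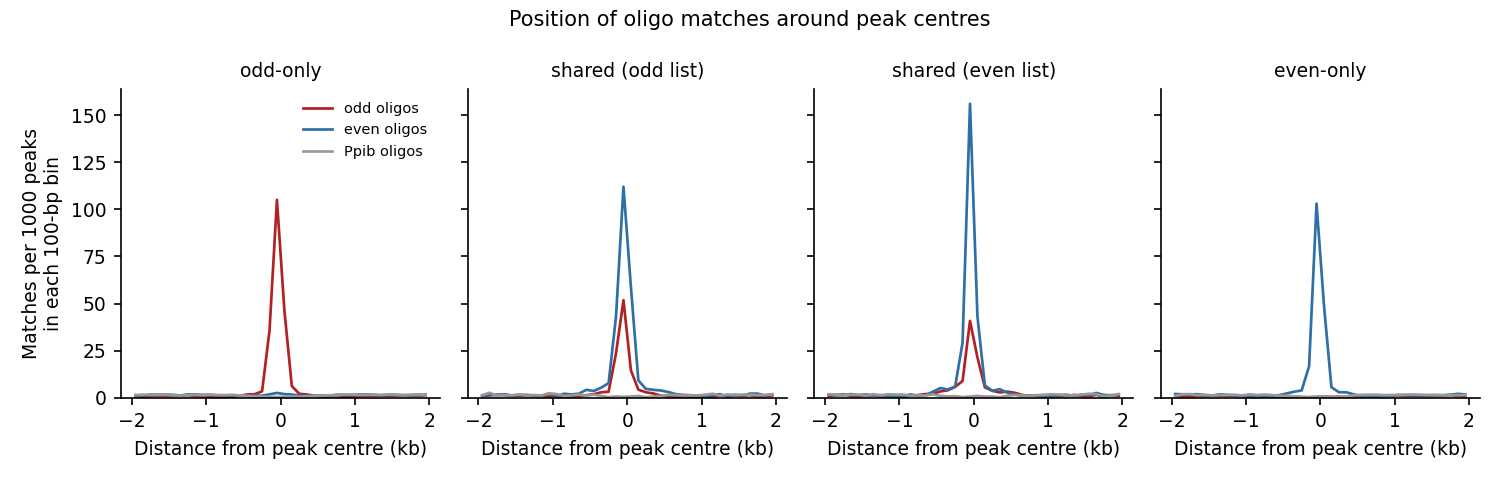
Exact matches of at least 12 bases per 1000 peaks in bins of 100 bp (vertical axis) against the distance from the peak centre in kb, for odd, even and Ppib oligos. Odd-only and even-only peaks each show 1 central spike, of their own pool, and shared peaks show a spike of both pools in either list. The Ppib line shows no spike and runs lower near the centre, where peaks were called against the Ppib pulldown.

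The 14 oligos differed in how their sites were divided between the classes. Sites matching oligo4 were the most frequent in shared peaks, at 12.9% of the shared peaks of the odd list, against 0.314% of odd-only and 1.89% of even-only peaks. By its number oligo4 was not in the odd pool, yet 1619 odd-list peaks held a match to it. Of these 92.3% (90.9 to 93.5) were shared, and of the 2318 even-list peaks with one 65.4% were shared. A peak at a site of the other pool is called shared where that pool recovered it, so a high share partly follows from the class rule. Over all even oligos, 80.4% of odd-list peaks with a longest match of 12 bases were shared and 95.5% with 15 or more. Oligo6, also of the even pool, gave 868 odd-list peaks of which 88.0% were shared and 1435 even-list peaks of which 54.1% were shared. From the odd pool, oligo5 stood out in the same way, with 624 even-list peaks of which 97.3% (95.7 to 98.3) were shared, whereas of its 2172 odd-list peaks 29.6% were shared. With matches of at least 14 bases, 85.4% of oligo5 peaks in the odd list and 95% of oligo4 peaks and 94.9% of oligo6 peaks in the even list were shared.

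Other oligos marked peaks of their own list. Oligo12 had the most peaks of all, 4584 in the even list, of which 10.2% (9.39 to 11.1) were shared, and it matched 9.69% of even-only peaks. In the odd list, oligo11 (1874 peaks), oligo9 (1586), oligo7 (874), oligo13 (504) and oligo1 (384) had between 4.67% and 7.34% of their peaks shared, and in the even list oligo8, oligo10 and oligo14 had 8.01%, 9.06% and 8.21%. Oligo3 (15.3% of 1887 odd-list peaks) and oligo2 (15.3% of 822 even-list peaks) were between these groups. In the list made without the oligo, peaks matching these 11 oligos were shared more often than in the list of its own pool, from 34.9% of 83 odd-list peaks for oligo14 to 88.6% of 411 odd-list peaks for oligo12 and 88.9% of 297 even-list peaks for oligo3. As for oligo4, this direction partly follows from the class rule. The share of peaks shared rose with the length of the match to the list's own pool, from 9.71% at 12 bases to 40.2% at 15 or more in the odd list and from 23.9% to 67.7% in the even list over all oligos of a pool. This rise was not seen for every oligo. From at least 12 to at least 14 bases the share rose for oligo3 (15.3% to 47.3%), oligo2 (15.3% to 36.6%) and oligo12 (10.2% to 29.5%), but was 5.26% and 5.49% for oligo7, 6.35% and 6.6% for oligo11, 4.67% and 3.07% for oligo9, and 8.21% and 4.72% for oligo14.

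**Figure D4:**
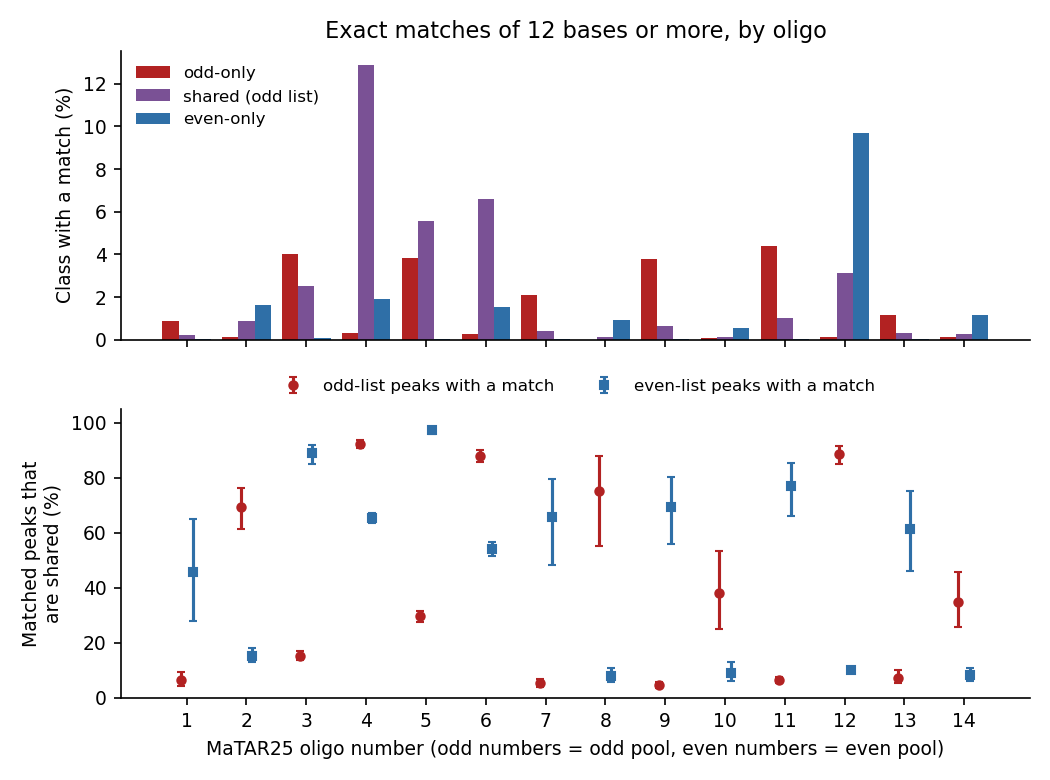
Upper panel, percent of odd-only, shared (odd list) and even-only peaks matching exactly, over 12 bases or more, each of the 14 MaTAR25 oligos; lower panel, percent of the matched peaks of each list that are shared, with 95% Wilson intervals. Oligo4, oligo5 and oligo6 lead among shared peaks (12.9%, 5.56% and 6.62%), and oligo12 leads among even-only peaks (9.69%).

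Sites with a mismatch followed the same division. Stretches of 14 oligo bases with at most 1 mismatch to an odd oligo were in 27% of odd-only and 0.787% of even-only peaks, and to an even oligo in 30.2% of even-only and 1.94% of odd-only peaks, beside 0.948% and 1.39% in 1 of every 100 windows. In shared peaks of the odd list the shares were 13.2% for odd and 39.5% for even oligos, and oligo4 alone accounted for 25% of the shared peaks, against 0.272% of these windows. Counting exact and mismatched sites together, 57% of shared, 36.7% of odd-only and 35.7% of even-only peaks held a site of some MaTAR25 oligo. This search was added after the exact matches had been seen.

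Among peaks with no exact match of even 10 bases, some short words were more frequent at the centre than in the flanks, and in even-only and shared peaks all of the 6 leading words were held by an oligo exactly or with 1 mismatch. In the central 250 bp of the 17940 such even-only peaks, the word GGTGGTGA, which differs from a stretch of oligo4 by 1 base, was in 10.6% of peaks against 0.903% of flanks 1 kb away, and GGTGGTGG (searched as CCACCACC on either strand), which oligo4 holds, was in 16.1% against 1.44%. In the 3363 such shared peaks of the odd list GGTGGTGA was in 10.1% against 1.07%. The 14699 such odd-only peaks had other leading words with smaller ratios. ATTCCCCC (3.06% against 0.616%) and GGTGTGAC (2.71% against 0.585%) led and were held by an oligo only with 1 mismatch, CCCAGGTT of oligo7 (5.17% against 1.13%) and CTCAATTC of oligo13 (3.74% against 0.854%) were held exactly, and ATTGAGTC and ACATAGAC were held by no oligo, not even with 1 mismatch. These words were picked for their ratio, so they are a description. The stretch GGTGGTGGAGAT itself was in the central 500 bp of 2.70% of shared peaks of the odd list, 0.0477% of odd-only and 0.0801% of even-only peaks and 4 of 41229 windows. The shorter word GGTGG was common everywhere, in 78.3% of shared, 61.5% of odd-only, 75.1% of even-only peaks and 60.6% of windows on either strand. Runs of at least 4 copies of TGG or its complement CCA were in 6.66% of even-only, 2.58% of shared (odd list) and 0.397% of odd-only peaks, against 0.360% of windows.

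The 10 shared pairs with the lowest sum of ranks lay on chromosomes 1, 5, 8, 9, 12 and 15. Of these pairs, 8 had an exact site of 12 bases or more and in all 8 it was for an even oligo, oligo4 in 5 and oligo6 in 3. A first pair lay nearest to Gm47564, a long noncoding RNA gene on chromosome 9, with score 4713.5 (rank 2) in the odd list and 1291.6 (rank 3) in the even list. With the same rank sum, the Tns1 pair lay in an intron on chromosome 1, with score 4136.0 (rank 4) in the odd list and 1771.9 (rank 1) in the even list. Tns1 encodes tensin 1, which links integrins to actin at focal adhesions. Pair 3 was intronic at chr15:62063483-62064233 near Gm27782, a small RNA gene, in an intron of a Pvt1 transcript, with ranks 5 and 7. Pair 4 lay upstream of Lonp2, a peroxisomal protease, with ranks 7 and 11, and pair 6 near Pvt1, a long noncoding RNA gene next to Myc, with ranks 27 and 32. All 20 peaks of these pairs overlapped the total-pool list and the NDL list.

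The oligo sites of 6 of these pairs are shown, to be read beside the oligos above. Each line gives 60 bases of the plus strand of GRCm38, and capitals mark the bases that match the oligo.
Tns1 site at chr1:74048512-74048571: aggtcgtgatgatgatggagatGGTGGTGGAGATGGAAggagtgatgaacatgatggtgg
Gm27782 site at chr15:62063753-62063812: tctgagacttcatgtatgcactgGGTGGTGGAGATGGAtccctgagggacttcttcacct
Lonp2 site at chr8:86606997-86607056: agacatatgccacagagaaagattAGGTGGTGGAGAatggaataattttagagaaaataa
Gm47564 site at chr9:14165365-14165424: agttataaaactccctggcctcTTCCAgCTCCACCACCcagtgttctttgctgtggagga
1700019J19Rik site at chr9:14021629-14021688: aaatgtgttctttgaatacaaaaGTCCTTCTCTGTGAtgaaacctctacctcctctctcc
Gm6863 site at chr12:96881867-96881926: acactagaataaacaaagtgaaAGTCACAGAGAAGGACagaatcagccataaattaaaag
The Tns1 site held 16 consecutive bases of oligo4 beside further TGG and GAT repeats, the Gm27782 site 15 and the Lonp2 site 12. The Gm47564 peaks had no exact match of 12 bases, but a stretch of 16 bases matched oligo4 with the single substitution A13C, counted from 1 at the 5′ end of the oligo, where the oligo has the first base and the site the second. The 1700019J19Rik and Gm6863 sites held 14 and 16 bases of oligo6.

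The highest-scoring peaks of 1 list alone showed the other oligos. The top odd-only peaks lay near Gm2582 (score 4339.4, rank 3), Kcnq3, a potassium channel gene (3155.5, rank 8), Gm25628 (3148.7, rank 9), Gm47775 (2982.2, rank 10) and Nudt7, a peroxisomal hydrolase gene (2967.5, rank 11). All 5 held 14 to 16 bases of oligo7, oligo11 or oligo13. The top even-only peaks lay near Gm28502 (score 1135.3, rank 8), Gm24696 (1076.7, rank 10), Gm47564 (771.8, rank 25), Gm47801 (757.9, rank 27) and Theg (738.6, rank 30). Of these, 3 held 13 or 14 bases of oligo12, the Theg peak a stretch of 14 bases of oligo4 with the substitution A13G, and the Gm28502 peak had no stretch over 10 bases with 1 mismatch and overlapped neither the total-pool nor the NDL list. For each class, 1 or 2 sites are shown in the same way.
Gm2582 site at chr15:57052538-57052597: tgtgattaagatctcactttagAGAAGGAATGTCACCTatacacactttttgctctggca
Kcnq3 site at chr15:66197511-66197570: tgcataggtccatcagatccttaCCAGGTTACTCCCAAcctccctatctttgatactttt
Gm24696 site at chr15:61434130-61434189: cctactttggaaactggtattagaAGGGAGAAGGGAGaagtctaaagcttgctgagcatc

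The lists made with all 14 oligos held shared peaks most often, more often in 4T1 than in NDL cells, and the other classes less often. Of the shared peaks of the odd list, 96.2% (95.8 to 96.5) overlapped the total-pool list of 4T1 cells, as did 72.3% (71.8 to 72.7) of even-only and 33.3% (32.9 to 33.8) of odd-only peaks, beside 3.41% of windows. In the NDL list these shares were 79.5%, 58.3% and 26.4%, beside 3.19% of windows. The order of the classes was the same in both cell types, and the intervals did not overlap. The overlap of own-pool peaks with the total list rose with the match: in the odd list from 48.0% with a longest odd-oligo match of 12 bases to 93.5% with 15 or more, and in the even list from 80.7% to 97.1%. The 4T1 lists share the Ppib pulldown as control, so their overlap is not independent of it.

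**Figure D5:**
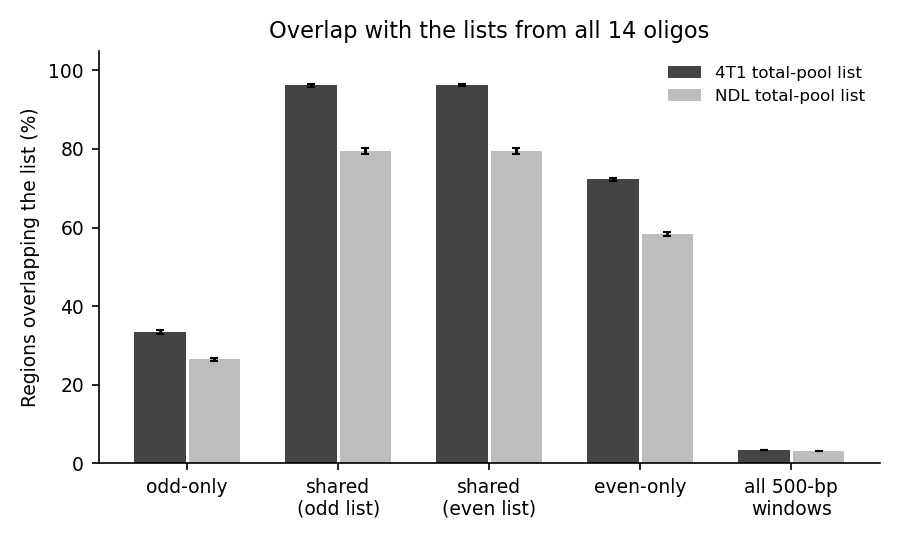
Share of regions (percent) that overlap the total-pool list of 4T1 cells (dark) or of NDL cells (light), for the 4 classes of peaks and for all 500-bp windows; bars are 95% Wilson intervals. Shared peaks reach 96.2% in 4T1 and 79.5% in NDL, even-only peaks 72.3% and 58.3%, odd-only peaks 33.3% and 26.4%.

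By location the classes differed by small margins, with shared peaks more often in exons and less often intergenic. Intergenic sites made up 47.0% of odd-only, 46.8% of even-only and 44.8% of shared peaks, and introns 42.6%, 42.6% and 42.7%. Promoters, as the Annotation column names them, held 3.41% (3.24 to 3.59) of odd-only, 3.57% (3.40 to 3.75) of even-only and 3.93% (3.6 to 4.31) of shared peaks. Exons held 3.31%, 3.25% and 4.54%. The median distance to the nearest TSS was 16073.5 bp, 15788 bp and 14969 bp. Peaks lay in slightly more GC-rich sequence than windows, with means of 42.9% ± 5.53 in odd-only, 44.0% ± 5.25 in even-only and 44.2% ± 5.30 in shared peaks against 42.0% ± 6.62 in windows (SD over regions). They held less repeat-masked sequence, with means of 27.3%, 28.7% and 24.6% against 33.4%. The nearest gene was protein-coding for 46.8% of odd-only, 47.4% of even-only and 48.3% of shared peaks.

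Of 8 genes named with earlier results of these data known, 6 had a shared peak nearest to them. Their peaks and their knockout changes are therefore not independent of the choice. The study tested Tns1, Pvt1 and Has2 by ChIRP-PCR with the even oligos. Tns1 had 10 odd-pool and 17 even-pool peaks, of which 4 in each list were shared, and Pvt1 13 and 14, of which 3 in each were shared. All 3 odd-pool peaks of Lonp2 and 3 of its 4 even-pool peaks were shared, and Ilvbl, an acetolactate synthase-like enzyme, Zhx2, a zinc finger and homeobox repressor, and Immp2l, a mitochondrial peptidase subunit, had 1 shared peak in each list. Ggnbp2 had 2 peaks in each list, none of them shared, and Has2, the hyaluronan synthase, had 2 odd-pool and 0 even-pool peaks, the higher with a score of 65.2 (rank 18317). Peaks were given to genes by nearest promoter alone, so even-pool peaks in the region around Has2 can carry another gene's name. Of 30 focal adhesion genes, 25 lay on the chromosomes used, and 7 of these (28.0%, 14.3 to 47.6) had a shared peak: Tns1, Tns3, Vcl, Tln2, Ptk2, Actn4 and Itgb5, which encode tensins, vinculin, a talin, focal adhesion kinase, an actinin and an integrin. Among all 17960 protein-coding genes 22.2% had one, with a median gene length of 17758 bp against 69093 bp in the list.

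Finally, the classes were set beside the knockout RNA-seq, in which MaTAR25 (ENSMUSG00000087684) was at 0.768 and 0.915 CPM in the control libraries and at 0 to 0.307 (median 0.123) in the 7 knockout libraries, with no overlap. The labels do not say whether replicates came from separate cultures, so p-values measure only the spread between these libraries. At an adjusted p of 0.1 (edgeR quasi-likelihood test, 7 knockout against 2 control libraries), 22.6% of all 15023 genes tested were called, and 22.2% of the 12474 on the chromosomes used. Of genes with a shared peak 599 of 2774 (21.6%, 20.1 to 23.2) were called, 283 higher and 316 lower in the knockout, with a median log2 fold change of 0.01. Over all genes on these chromosomes 1491 called genes were higher and 1278 lower. Among genes longer than 33007 bp, 135 with a shared peak were called higher and 223 lower. For those with peaks of both lists but none shared the counts were 102 and 177. They were 39 and 61 with odd-only peaks alone, 48 and 56 with even-only peaks alone, and 47 and 45 with no peak. Of genes with odd-only peaks alone 379 of 1552 (24.4%, 22.3 to 26.6) were called, with a median of 0.06, and of genes with even-only peaks alone 416 of 1895 (22%, 20.1 to 23.9), with a median of 0.09. Of genes with no peak 879 of 4013 (21.9%) were called, with a median of 0.12, so that every class was near the share over all genes. Genes with a shared peak were longer, with a median of 44545 bp against 8492 bp for genes with no peak. Without control replicate 1 or 2 the control group is 1 library, assumed to vary like the knockout libraries, and called genes fell to 462 and 574 over all genes (2.95% and 3.61%), with 83 and 109 of those with a shared peak (2.88% and 3.74%), 51 and 70 of those with odd-only peaks alone (3.16% and 4.27%) and 57 and 69 of those with even-only peaks alone (2.91% and 3.48%).

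Of the genes nearest to the 10 top shared pairs, 5 could be tested in the knockout readout. Of these, 2 were called, Lonp2 and Pvt1, beside 22.2% of all genes tested on these chromosomes. Lonp2 was at 106 and 113 CPM in the controls and at 50.2 to 79.8 (median 59.5) in the knockout libraries, without overlap, a log2 change of -0.80 (SE 0.19, edgeR adjusted p = 0.0218). Pvt1 was at 37.6 and 24.6 against 12.3 to 20.6 (median 18), a log2 change of -0.86 (SE 0.23, edgeR adjusted p = 0.03). Both fell in the knockout libraries, but Lonp2 did not pass without control replicate 1 or 2, with log2 changes of -0.87 to -0.75 over all 13 alternatives, and Pvt1 did not pass without control replicate 1 or with the replicate number as a block, with -1.13 to -0.51. Tns1 was at 6.80 and 2.17 in the controls and at 0.123 to 2.76 (median 0.379) in the knockout, so that the groups overlapped, with a log2 change of -2.41 (SE 0.93, edgeR adjusted p = 0.11), and it passed in 2 of the 13 alternatives, without KO2 replicate 3 and with DESeq2. Its log2 change was -1.35 without control replicate 1, -3.01 without control replicate 2 and -3.1 without KO2 replicate 3. The other 2, 3110039I08Rik and Gm6863, did not pass in any of the 13 alternatives, with log2 changes of 0.14 (SE 0.29, edgeR adjusted p = 0.784) and 0.22 (SE 0.33, edgeR adjusted p = 0.693). Further genes were named with earlier results of these data known, and not from these pairs. Zhx2 fell from 97.5 and 88.0 to between 26.0 and 45.2 (median 31.9), a log2 change of -1.47 (SE 0.20, edgeR adjusted p = 0.00243), and Immp2l fell by 1.04 on the log2 scale (SE 0.32, edgeR adjusted p = 0.0543). Zhx2 passed in all 13 alternatives, and Immp2l did not pass without control replicate 1 or 2 (-1.09 and -0.98), without the filter on low counts or with the block. Ggnbp2, without a shared peak, fell by 0.90 on the log2 scale (SE 0.19, edgeR adjusted p = 0.0138) and did not pass without control replicate 1 or 2, where its log2 change was -0.92 and -0.86. Ilvbl, with a shared peak, was at 44.2 and 43.5 CPM against 24.6 to 36.5 (median 33.1), without overlap, a log2 change of -0.47 (SE 0.18, edgeR adjusted p = 0.106), and it passed in 3 of the 13 alternatives, with DESeq2 and without KO2 replicate 3 or 4. Has2, with odd-only peaks alone, had a log2 change of 0.31 (SE 0.66, edgeR adjusted p = 0.787). All 25 focal adhesion genes were tested, and 3 rose, 3 fell and 19 did not pass (24% called, beside 22.2% of genes on these chromosomes), with a median log2 change of -0.12 beside 0.06 over all genes. Of the 7 with a shared peak, Tns3 rose by 0.71 on the log2 scale and Actn4 by 0.90, and Itgb5 fell by 1.03 on the log2 scale, while Tns1, Vcl, Tln2 and Ptk2 did not pass. Without control replicate 1 or 2 none of these 3 passed, with log2 changes of 0.8 and 0.65 for Tns3, 0.91 and 0.91 for Actn4 and -1.07 and -0.97 for Itgb5. Tns3 did not pass with the block either (0.75), and Itgb5 passed in 3 of the 13 alternatives.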

How the data were processed

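ChIRP-seq peak lists and RNA-seq gene counts were taken as deposited. Per the study's methods and the submitters' processing notes, the authors aligned paired-end ChIRP reads to GRCm38 (mm10) with Bowtie2, called peaks with HOMER on the combined replicates of a pool, with the Ppib pulldown as background (histone style, at least 50-fold) and annotated them with GENCODE. The deposited lists give a score for each peak and its distance to the nearest TSS, with no read counts, so that the depth behind a peak is unknown. The authors made the RNA-seq counts with STAR and HTSeq, and these raw counts per gene were deposited for 9 libraries, with 25367211 to 61110585 counts in genes. The file of KO2 replicate 2 lists each gene 3 times with the same value, of which 1 was used.

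Members, gene lists and tests were chosen with earlier results of these data known. Peaks on chromosomes 1 and 4 to 19 were intersected (at least 1 bp). Exact matches to the oligos, taken from the study's supplementary table, were searched on both strands of GRCm38 (RefSeq), and all 4122066 consecutive 500-bp windows without N gave the comparison. Nearest promoters were matched to genes in GENCODE vM21, without a match for 120 odd-pool and 117 even-pool peaks. Knockout and control counts were compared with edgeR 4.0.16 (quasi-likelihood, TMM, filterByExpr, Benjamini-Hochberg) in R 4.3.3, with DESeq2 1.42.0 as an alternative, and levels are CPM on TMM-scaled libraries. Each SE of a log2 change was derived as its absolute value divided by the square root of the edgeR F statistic. Genes were named as nearest to the 10 shared pairs with the lowest sum of ranks, to the 5 highest-scoring peaks of each list alone, as 8 genes chosen with earlier results known (Tns1, Pvt1, Has2, Lonp2, Ilvbl, Zhx2, Ggnbp2 and Immp2l), or as focal adhesion genes with a shared peak. Shares carry 95% Wilson intervals. The overlap, matching and count tests were checked on simulated data. Other settings tried were overlap, score floor, match length, region searched, count filter, scaling, replicate block and left-out libraries.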

Additional observations from a re-analysis of the deposited data

Results flagged for a closer look

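In the KO2 group, the only one of 4 libraries, 35 named genes were checked for a library far from the rest, and chance alone flags about 1 in 20 groups. Tns1, nearest to one of the 10 top shared pairs, stood at 2.76 CPM in KO2 replicate 3 and at 0.123, 0.335 and 0.379 in the other KO2 libraries, above control replicate 2 (2.17). Itgb3, an integrin subunit gene with peaks of both lists and none shared, stood at 32.7 CPM in KO2 replicate 4 and at 0.758, 1.26 and 5.65 in the others.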

How the results depend on the processing

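Shares of peaks moved with the settings mostly by more than their counting intervals, while the order of the classes in matches and in overlap with the total list held under each setting run, apart from odd-oligo matches of at least 14 bases, which were more frequent in shared than in odd-only peaks. The share shared of the odd and even lists was 21.6% and 20.5% with at least 250 bp of overlap, 26.4% and 25.2% with edges within 1 kb, 20.0% and 27% at a score of at least 100 in both lists, 21.2% and 20.2% over all chromosomes, and 22.8% for the even list among the 10000 highest-scoring peaks of each. With matches of at least 10 bases, odd-oligo sites were in 57.3% of odd-only, 11% of even-only and 28.6% of shared peaks and even-oligo sites in 13.5%, 52.8% and 54.3%. With at least 14 bases these were 1.72%, 0% and 2.50%, and 0.1%, 2.03% and 6.20%. In the 500 bp around the centre they were 19.3%, 0.233% and 9.42%, and 0.904%, 16.3% and 22.5%. With 14 bases and at most 1 mismatch, a setting chosen after seeing the data, they were 27%, 0.787% and 13.2%, and 1.94%, 30.2% and 39.5%. Overlap with the total list was 25.5% of odd-only, 84.4% of even-only and 97.4% of shared peaks at a score of at least 100 in all lists, and 95.5% of shared peaks with at least 250 bp. Promoter shares were 3.91% of odd-only and 4.88% of shared peaks at a score of at least 100, and 5.91%, 6.27% and 6.83% of odd-only, even-only and shared peaks within 1 kb of a TSS.

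With the replicate number as a block, called genes were 360 with a shared peak (13%), 225 with odd-only (14.5%) and 230 with even-only peaks alone (12.1%). Over all genes 1952 of 15023 (13%) were called, so these classes were near that share. Deviations of same-numbered libraries from their group means correlated between -0.0069 and 0.0558. With 2 control libraries these deviations mirror each other, so the check says little about pairing. No pairing was assumed in the main fit. Without one library at a time the counts ran from 83 to 688, from 51 to 436 and from 57 to 504, lowest without a control library, as over all genes. Using only peaks within 10 kb of the promoter, 382 of 1759 genes with a shared peak (21.7%) were called, beside 22.2% of genes on these chromosomes. The cause of these changes was not tested. The pooled lists have no replicate error, read depth per peak is unknown, and the odd list rests on 2 libraries and the even list on 3.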

Other observations

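The highest-scoring peaks of both pools were spread unevenly over the chromosomes. Chromosome 15 held 5.17% of odd-pool and 5.22% of even-pool peaks but 8.5% and 8.2% of the top 1000 of each list. Chromosome 9 held 6.79% and 6.74% of all and 9.1% and 10.6% of the top 1000, and chromosome 8 held 7.09% and 6.92% of all and 9.4% and 9.6% of the top 1000. Chromosome 7 went the other way, with 6% and 6.08% of all and 3.7% and 2.5% of the top 1000. The share of peaks that were shared differed little, from 20.5% to 23.9% of odd-pool and from 20.1% to 23.1% of even-pool peaks over the 17 chromosomes.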
